A study of Sus scrofa with 2 samples.

Results

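Genes linked by name to the sheath of peripheral nerves, KRT8, KRT18, CLDN1, ITGB4, MPZL2, GFRA2 and ANGPTL7, were followed cell by cell in single-cell RNA sequencing data from pig muscle. They are 7 of the 21301 features of the deposited matrices. They were chosen by name, with earlier results of the same data known, and each name matched 1 feature. Because these genes were picked for their pattern in these cells, their levels are given as a description and no test was made on them.

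The cells came from the longissimus dorsi, the long muscle of the back, of piglets of the Guangdong small-eared spotted pig (GDSS) or of Yorkshire, with 1 library for each breed. Per the labels they are intramuscular vascular stem cells, prepared from 1 g of muscle per piglet after lysis of red blood cells and removal of dead cells on magnetic beads. The labels do not say how many piglets stand behind each library, their age or sex, or what P0 in both titles means. With 1 library per breed there is no replicate, so no p-value is given, and breed cannot be told apart from animal, preparation or library.

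Barcodes with at least 500 detected genes were taken as cells, 11533 of 12286 in GDSS and 14318 of 14695 in Yorkshire. They held 41458961 and 54023131 unique molecular identifiers (UMIs, each standing for 1 captured RNA molecule), with medians of 2893 and 3042 UMIs per cell. Levels are summed UMIs as counts per 1000000 UMIs of the same cells (CPM). Intervals are at 95% and hold counting error alone, exact Poisson for CPM, Clopper-Pearson for shares of cells and conditional binomial for ratios. Set against the labelled cell type, clusters with vessel wall markers (mural-like) held 446 GDSS and 1165 Yorkshire cells and endothelial-like ones 261 and 1745, while the largest classes were cells like fibro-adipogenic progenitors, the stromal progenitors of muscle (FAP-like), in GDSS (7189 cells) and cells like muscle stem cells (satellite-like) in Yorkshire (7429). The libraries shared 43 cell barcodes, 0.373% of the GDSS and 0.30% of the Yorkshire cells.

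A peripheral nerve is wrapped in layers. Schwann cells lie against the axons, endoneurial fibroblasts fill the space between the fibres, and the perineurium, a sleeve of flattened cells joined by tight junctions, closes each bundle and acts as a diffusion barrier. Perineurial cells are known for the tight junction protein claudin-1 and for a basement membrane of their own. KRT8 and KRT18 are the paired keratins of simple epithelia, which form filaments together. CLDN1 encodes claudin-1. ITGB4 encodes the integrin chain that pairs with integrin alpha 6, binds laminin and anchors filaments through plectin. MPZL2 encodes an immunoglobulin-type adhesion protein. GFRA2 encodes the receptor that presents neurturin to the RET kinase, and ANGPTL7 encodes a secreted angiopoietin-like protein.

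Cells were clustered without the 7 genes, and 1 of 25 clusters, number 16, passed the rule for a high mean level of them. It had 428 GDSS cells (3.71% of the library, 3.37 to 4.07) and 282 Yorkshire cells (1.97%, 1.75 to 2.21). Its leading genes were TENM2, SPAI-2, PODNL1, SLC30A3, TMEM132C and COL9A1. Of the markers that name a cluster, 4 of 7 for fibro-adipogenic progenitors (FAPs) and 3 of 4 for endoneurial fibroblasts (ETV1, SOX9 and OSR2) passed there, but 0 of the 4 perineurial ones beside the 7 genes (NTNG1, TENM2, ITGA6 and PERP). TENM2, a perineurial marker, led the cluster but was detected in too few of its cells. As the cluster picked by the 7 genes, cluster 16 was left out of the naming whatever its markers, and so has no cell type name. Its leading genes and passing markers were of different classes. The perineurial markers SLC2A1 and MUC1 were not analysed here.

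**Figure D1:**
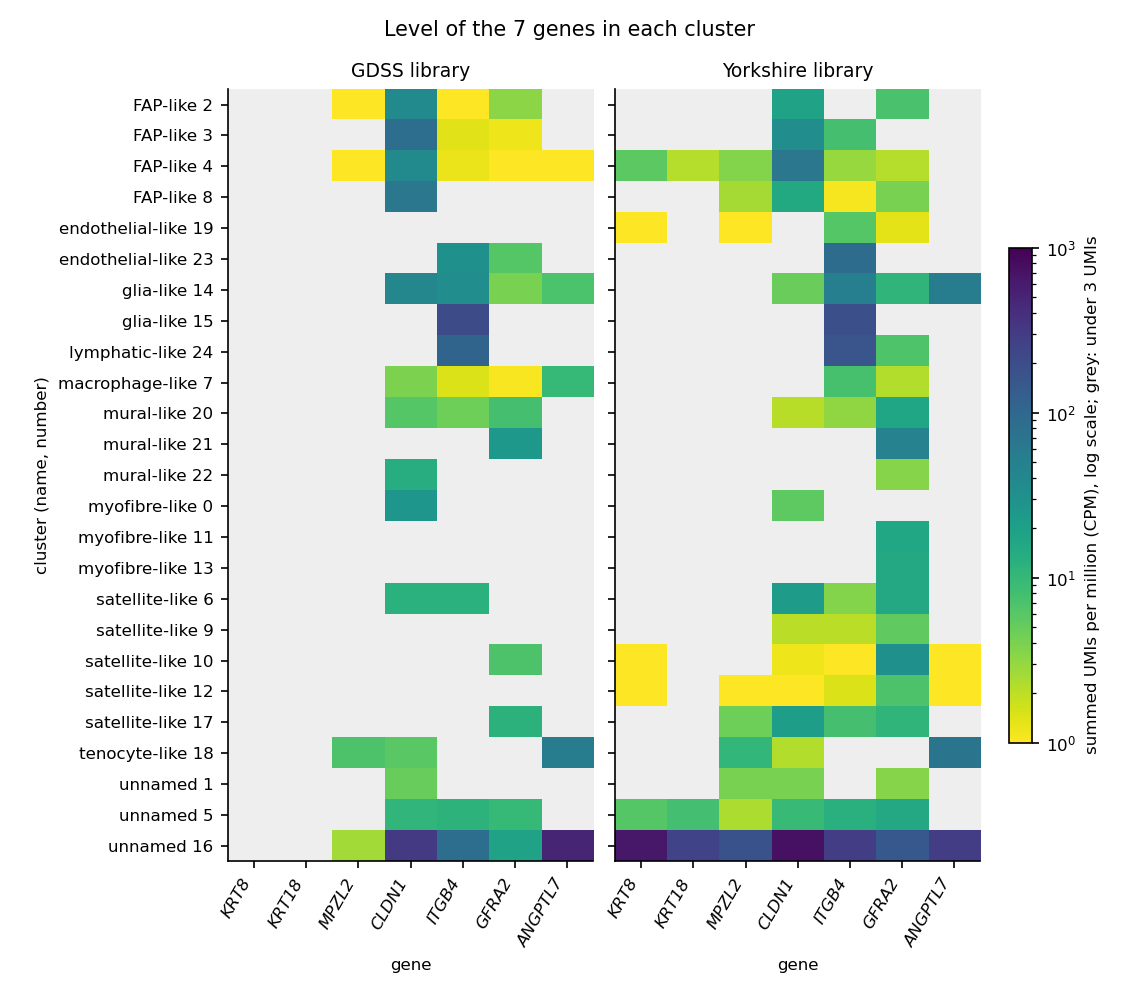
Summed level of the 7 genes (columns, CPM on a log colour scale) in each of the 25 clusters (rows, by name and number) of the GDSS library (left) and the Yorkshire library (right), with grey where a cluster held under 3 UMIs. Cluster 16, the bottom row, is dark for all 7 genes in Yorkshire, and in GDSS for CLDN1, ANGPTL7 and ITGB4 but not for KRT8 or KRT18.

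KRT8 was a gene of the Yorkshire library alone as far as the counts go. Yorkshire held 961 KRT8 UMIs (17.8 CPM, 16.7 to 19.0) in 80 of 14318 cells (0.559%, 0.443 to 0.695). GDSS held 0 UMIs in 11533 cells, which allows a share of cells with a KRT8 UMI of up to 0.0320%. At the Yorkshire level GDSS would have held 738 KRT8 UMIs. With the 0 set to 3 UMIs over the library, KRT8 was at least 246-fold higher in Yorkshire. Most of the UMIs lay in 65 Yorkshire cells that make up, with 3 GDSS cells, sub-cluster 4 of cluster 16. Without that sub-cluster 86 KRT8 UMIs were left in Yorkshire, at least 22.2-fold higher.

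KRT18, its partner, followed the same cells. Yorkshire held 373 UMIs in 46 cells and GDSS 4 UMIs in 4 cells, 6.90 against 0.0965 CPM. The Yorkshire level was 71.6-fold higher (27.7 to 264), and 3.67-fold higher (1.22 to 14.8) without sub-cluster 4, on 19 UMIs. The 4 GDSS cells had 1 UMI each and none of them lay in cluster 16. Both keratins were concentrated in few cells: the 10 richest Yorkshire cells held 58.9% of all KRT8 and 75.9% of all KRT18 UMIs. KRT8 and KRT18 are known for near-identical processed copies in mammalian genomes, so reads could be split between copies, and how such reads were counted is not stated.

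MPZL2 was also mainly a Yorkshire gene, with 315 UMIs in 112 cells (5.83 CPM) against 40 UMIs in 37 cells (0.965 CPM) in GDSS, a ratio of 6.04 (4.34 to 8.62). Without sub-cluster 4 the MPZL2 levels were 1.60 and 0.965 CPM, a ratio of 1.66 (1.13 to 2.48), and outside cluster 16 they were 1.18 and 0.902 CPM. GFRA2 was spread over more cells and stood at 863 UMIs in 588 Yorkshire cells and 120 UMIs in 112 GDSS cells, 16 against 2.89 CPM. Its ratio was 5.52 (4.56 to 6.74). ITGB4 stood at 965 UMIs in 491 Yorkshire and 302 UMIs in 207 GDSS cells, 17.9 against 7.28 CPM, a ratio of 2.45 (2.15 to 2.80).

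CLDN1 and ANGPTL7 had the higher level in GDSS when all cells were summed. CLDN1 held 1805 UMIs in 1154 GDSS cells and 1319 UMIs in 385 Yorkshire cells, 43.5 against 24.4 CPM, so the GDSS level was 1.78-fold higher (1.66 to 1.92), and 2.87-fold higher (2.64 to 3.12) without sub-cluster 4. ANGPTL7 held 960 UMIs in 131 GDSS cells and 627 UMIs in 136 Yorkshire cells, 23.2 against 11.6 CPM, 1.99-fold higher in GDSS (1.80 to 2.21). The cells with CLDN1 were more numerous in GDSS but held fewer UMIs each, a median of 1 against 2. For ANGPTL7 the number of cells was about the same and the UMIs per cell differed, a median of 3 in GDSS and 1 in Yorkshire.

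With a threshold of 1.5-fold over all cells, 5 of the 7 genes were higher in the Yorkshire library and 2 in the GDSS library. Among the 12264 genes with at least 100 UMIs, 23.2% passed it towards Yorkshire and 13.8% towards GDSS. The log2 ratio (GDSS level divided by Yorkshire level) had a median of -2.46 over the 7 genes, with KRT8 at its bound, and -0.12 over all genes. The 7 genes were picked from these values, so this count is given as a description only.

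Cluster 16 held most of the keratin and MPZL2 UMIs of Yorkshire, and its share differed from gene to gene. It took 95.8% of KRT8 UMIs (94.4 to 97.0), 95.4% of KRT18, 80.3% of MPZL2, 79.8% of CLDN1 and 65.2% of ANGPTL7 in Yorkshire, with 1.97% of the cells. It held 42.1% of the Yorkshire UMIs of ITGB4, more than any other cluster, and 24.9% of those of GFRA2, of which satellite-like cluster 10 held more (399 against 215 UMIs). In GDSS it held 79.8% of ANGPTL7, 42.1% of ITGB4, 26.9% of CLDN1, 24.2% of GFRA2 and 10.0% of MPZL2 UMIs.

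Within cluster 16 the libraries differed in the same direction for 6 of the 7 genes. KRT8 stood at 643 CPM in Yorkshire (921 UMIs in 56 of 282 cells) and at 0 UMIs in 428 GDSS cells, at least 333-fold higher. KRT18 stood at 248 CPM in Yorkshire (356 UMIs in 39 cells) and at 0 UMIs in GDSS, at least 129-fold higher. MPZL2 stood at 177 CPM (253 UMIs in 59 cells) against 2.58 CPM (4 UMIs in 4 cells), a ratio of 68.6 (26.5 to 254).

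GFRA2 was 8.04-fold higher in the Yorkshire cells of cluster 16 (5.44 to 12.3), at 150 against 18.7 CPM, and was detected in 88 of 282 and 26 of 428 cells. ITGB4 was 3.47-fold higher (2.83 to 4.27), at 283 against 81.8 CPM. CLDN1 turned round: it was 2.35-fold higher in Yorkshire here (2.11 to 2.62), at 734 against 312 CPM, and was detected in 78.0% of the Yorkshire and 54.9% of the GDSS cells. ANGPTL7 remained higher in GDSS, at 493 against 286 CPM, 1.73-fold (1.53 to 1.95). This direction turned in 2 of 8 alternatives: with finer clusters (Leiden resolution 2.0) and with the 7 genes kept in the clustering, the cells picked by the same rule held 1 and 0 GDSS against 40 Yorkshire UMIs of ANGPTL7. At the 1.5-fold threshold 6 of the 7 genes lay towards Yorkshire and 1 towards GDSS, beside 17.6% and 7.73% of the 4103 genes with at least 100 UMIs in cluster 16. The 7 genes were picked with these values known and cluster 16 by their levels, so this count is a description only. KRT8, KRT18 and MPZL2, with 0, 0 and 4 GDSS UMIs there, reached 100 UMIs through Yorkshire. The Yorkshire cells of cluster 16 were deeper, with a median of 4384 against 3195 UMIs.

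With every cell thinned to 1500 UMIs, the direction of these shares in cluster 16 was kept except for ANGPTL7. Thinning left 392 GDSS and 277 Yorkshire cells. KRT8 was then detected in 14.4% of the Yorkshire and 0 of the GDSS cells, MPZL2 in 14.1% and 0, and CLDN1 in 52.7% and 32.4%. ITGB4 was detected in 24.2% and 8.16%, and GFRA2 in 13.0% and 1.79%. ANGPTL7 was detected in 11.6% of the Yorkshire (8.04 to 15.9) and 14.5% of the GDSS cells (11.2 to 18.4) after thinning, and in 19.9% and 17.1% before it, with intervals that overlap both times.

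**Figure D2:**
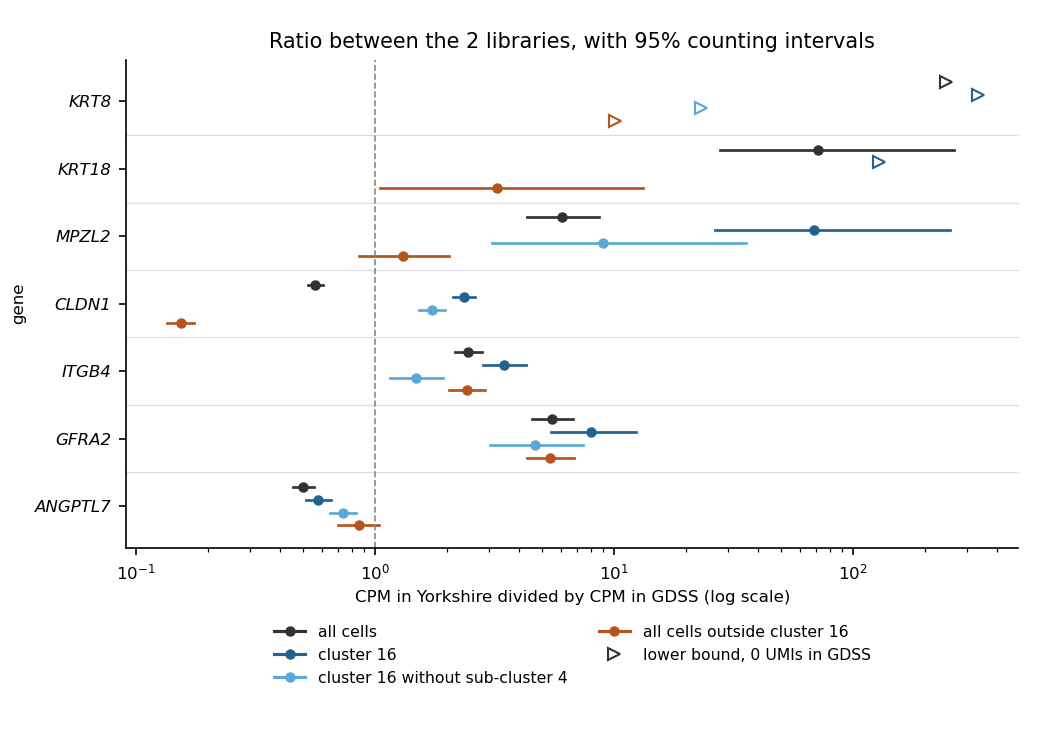
Ratio of the Yorkshire to the GDSS level of each gene (x axis, CPM ratio on a log scale; the dashed line marks equal levels) in all cells, in cluster 16, in cluster 16 without its sub-cluster 4 and in all cells outside cluster 16. Points carry 95% counting intervals and open triangles are lower bounds where GDSS had 0 UMIs; KRT18 without sub-cluster 4 had 2 UMIs and is not drawn. CLDN1 lies left of the line in all cells (0.561) and right of it in cluster 16 (2.35).

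Cluster 16 was split again without the 7 genes, a step added after the clusters were seen, and the 7 genes did not lie in the same sub-clusters. Sub-cluster 4 held 875 of the 921 KRT8 UMIs and 354 of the 356 KRT18 UMIs of the Yorkshire cells of cluster 16. It had 65 Yorkshire cells, 23.0% of cluster 16 in that library (18.3 to 28.4), and 3 GDSS cells, 0.701% (0.145 to 2.03). Its other leading genes included SFRP5, ITGBL1, SFRP4, CDH5 and NGFR.

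In the 65 Yorkshire cells of sub-cluster 4, CLDN1 was detected in 62 cells, ITGB4 in 60, MPZL2 in 53, KRT8 in 49, GFRA2 in 45, KRT18 in 37 and ANGPTL7 in 24. Their levels ran from 2146 CPM for KRT8 and 1255 CPM for CLDN1 through 868 CPM for KRT18, 696 CPM for ITGB4, 562 CPM for MPZL2 and 314 CPM for GFRA2 to 85.8 CPM for ANGPTL7. Each of these cells held at least 2 of the 7 genes, 45 held at least 5 and 10 held all 7.

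The 3 GDSS cells of sub-cluster 4 held 15461 UMIs in all, with 15 CLDN1 and 4 ITGB4 UMIs, 1 GFRA2 and 1 ANGPTL7 UMI and 0 of KRT8, KRT18 and MPZL2. The Yorkshire UMIs were carried by few cells: the 10 richest cells of the sub-cluster held 64.7% of its KRT8 and 79.9% of its KRT18 UMIs. The 3 GDSS cells, of which 1 held 11766 of the 15461 UMIs, are too few to compare these genes between the libraries within sub-cluster 4. The CLDN1 level of these 3 cells, 970 CPM (543 to 1600), overlapped that of the Yorkshire cells, 1255 CPM (1149 to 1369).

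ANGPTL7 lay in sub-cluster 1, which both libraries held: 128 GDSS cells (29.9% of cluster 16) and 74 Yorkshire cells (26.2%). In GDSS 765 ANGPTL7 UMIs lay in 72 of these cells, at 1369 CPM, and in Yorkshire 369 UMIs lay in 29 cells, at 1062 CPM. The cells that held it had similar amounts, a median of 7.5 UMIs in GDSS and 7 in Yorkshire, and a highest value of 42 and 40. The GDSS level was 1.29-fold higher (1.14 to 1.46). KRT8 and KRT18 were at 0 UMIs in sub-cluster 1 in both libraries. The ITGB4 level there was 150 CPM for the GDSS cells and 153 CPM for the Yorkshire cells, with a ratio of 1.01 (0.706 to 1.45). CLDN1 was 1.52-fold higher in Yorkshire there (1.19 to 1.93), at 391 against 258 CPM. It was the 1 gene past the 1.5-fold threshold among the 3 with at least 100 UMIs in sub-cluster 1, and its interval reaches below that threshold. Among all 1234 genes with at least 100 UMIs there, 9.0% passed it towards Yorkshire and 11.3% towards GDSS. The leading genes of sub-cluster 1 included AQP3, FCN2 and COL9A3.

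Sub-cluster 0, the largest in GDSS with 244 cells against 78 in Yorkshire and led by MYOC and BMP5, held CLDN1 at 274 CPM (GDSS) and 331 CPM (Yorkshire) and under 10 UMIs of any of the others in either library. KRT8, KRT18 and ANGPTL7 were at 0 UMIs there in both libraries. Sub-cluster 3, with 28 GDSS and 56 Yorkshire cells and led by ADCYAP1 and SPAI-2, held CLDN1 at similar levels in both libraries, 801 CPM (652 to 973) and 886 CPM (789 to 991). GFRA2 differed there, at 47.6 CPM for GDSS against 188 CPM for Yorkshire, a ratio of 3.95 (1.72 to 11.2). The other 46 KRT8 UMIs of the Yorkshire cells of cluster 16 lay in 7 cells of sub-cluster 3. Sub-cluster 2, with 25 GDSS and 9 Yorkshire cells, held CLDN1 on 16 and 4 UMIs and ITGB4 on 20 and 3 UMIs. ITGB4 was higher in GDSS there, at 223.5 against 63.35 CPM, a ratio of 3.53 (1.05 to 18.5).

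**Figure D3:**
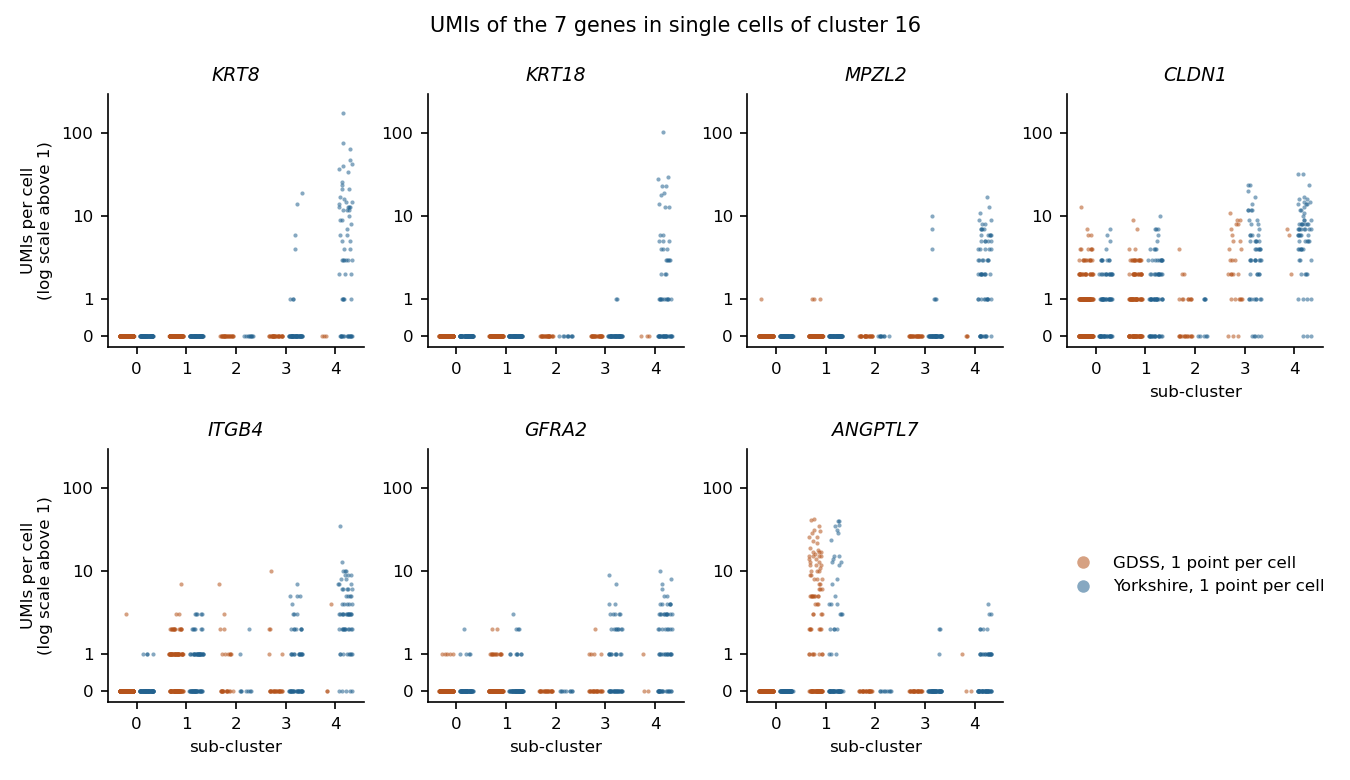
UMIs of each gene in single cells of cluster 16 (y axis, log scale above 1), by sub-cluster (x axis), with 1 point per GDSS cell (brown) or Yorkshire cell (blue) and random sideways spread. KRT8 and KRT18 rise above 10 UMIs in Yorkshire cells of sub-cluster 4, ANGPTL7 rises above 10 UMIs in cells of both libraries in sub-cluster 1, and CLDN1 is found in every sub-cluster.

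Without sub-cluster 4 most differences between the libraries in cluster 16 were smaller. CLDN1 was then 1.72-fold higher in Yorkshire (1.52 to 1.96), ITGB4 1.49-fold (1.15 to 1.93), MPZL2 9.0-fold (3.09 to 35.7) and GFRA2 4.66-fold (3.02 to 7.42), and ANGPTL7 1.36-fold higher in GDSS (1.20 to 1.55). The MPZL2 value rested on 3 deep cells of sub-cluster 3, with 17868, 18119 and 21617 UMIs, which held 4, 10 and 7 of its 24 Yorkshire UMIs and also 19, 6 and 14 KRT8 UMIs. KRT8 was at least 23.0-fold higher in Yorkshire, on 46 UMIs, and KRT18 had 2 UMIs in Yorkshire and 0 in GDSS. Among the 4 genes with at least 100 UMIs, CLDN1 and GFRA2 passed the 1.5-fold threshold towards Yorkshire and 0 towards GDSS, beside 14.5% and 7.94% of 3540 genes. This count too is a description only.

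The keratin cells were looked at one by one. At least 3 KRT8 UMIs were held by 48 Yorkshire cells, and 45 of them lay in cluster 16, 41 in sub-cluster 4 and 4 in other sub-clusters. Just below this limit, 32 Yorkshire cells held 1 or 2 KRT8 UMIs, 11 of them in cluster 16. In the 45 cells KRT8 ran from 3 to 176 UMIs with a median of 13. KRT18 ran up to 102 UMIs with a median of 2.

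The ratio of KRT8 to KRT18 was not fixed from cell to cell. Over the 45 cells KRT8 had 2.83 UMIs for each of KRT18. KRT18 was detected in 32 of them and was higher than KRT8 in 5. The 13 cells without KRT18 held up to 24 KRT8 UMIs. The richest cell held 176 KRT8 and 102 KRT18 UMIs among 24339, so that KRT8 alone made up 0.723% of its RNA. The highest doublet score among the 45 cells was 0.136, and their median depth was 6121 UMIs against 4183 for the other Yorkshire cells of cluster 16.

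In the same 45 cells CLDN1 was detected in 44 with a median of 7 UMIs, ITGB4 in 44 with a median of 3, MPZL2 in 38 with a median of 4 and GFRA2 in 33 with a median of 2. ANGPTL7 was detected in 21 and never above 4 UMIs. Of the 16 Yorkshire cells of cluster 16 with at least 5 ANGPTL7 UMIs, 0 held a KRT8 UMI. Low counts of ANGPTL7 were thus found in KRT8 cells, while by these limits no Yorkshire cell of cluster 16 was rich in both.

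Over all Yorkshire cells KRT8 was found with each of the other 6 genes in more cells than the product of their shares gives. KRT8 and KRT18 were found together in 38 cells, 47.5% of the KRT8 and 82.6% of the KRT18 cells, where the product of their shares would give 0.257 cells. KRT8 and MPZL2 shared 47 cells, 58.8% and 42.0% of the cells of each, KRT8 and ITGB4 shared 60 (75.0% and 12.2%), and KRT8 and CLDN1 shared 57 (71.2% and 14.8%). The product of shares would give 0.626, 2.74 and 2.15 cells. KRT8 and ANGPTL7 shared 24 cells too, 17.6% of the ANGPTL7 cells, beside 0.760 from the product, and all 24 lay in cluster 16, where the product gives 11.1. KRT8 and GFRA2 shared 43 (53.8% and 7.31%), beside 3.29. In GDSS the pair most often found together was CLDN1 with ITGB4, in 59 cells, 5.11% of the CLDN1 and 28.5% of the ITGB4 cells, beside 20.7 cells from the product. ITGB4 and ANGPTL7 shared 38 GDSS cells (18.4% and 29.0%), beside 2.35. Within cluster 16 CLDN1 and ITGB4 shared 47 GDSS cells, where the product gives 42.3. For ITGB4 and ANGPTL7 there it was 37 cells, beside 13.1.

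Inside sub-cluster 4 the pairs lay nearer to the product of shares. Among the 65 Yorkshire cells of sub-cluster 4, KRT8 and KRT18 shared 33 cells where the product gives 27.9, KRT8 and MPZL2 shared 41 where it gives 40.0, and ITGB4 and MPZL2 shared 50 where it gives 48.9. Cell depth in the Yorkshire cells of cluster 16 ran from 1003 to 24339 UMIs, and its part in the co-detection within sub-cluster 4 was not tested.

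At least 2 of the 7 genes were found in 129 GDSS cells (1.12%, 0.935 to 1.33) and 205 Yorkshire cells (1.43%, 1.24 to 1.64), and cluster 16 held 75.2% and 76.6% of them. At least 5 were found in 1 GDSS and 51 Yorkshire cells. All 7 were found together in 11 Yorkshire cells and in 0 GDSS cells. With every cell thinned to 1500 UMIs, 0.386% of GDSS and 0.790% of Yorkshire cells held at least 2 of the genes.

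**Figure D4:**
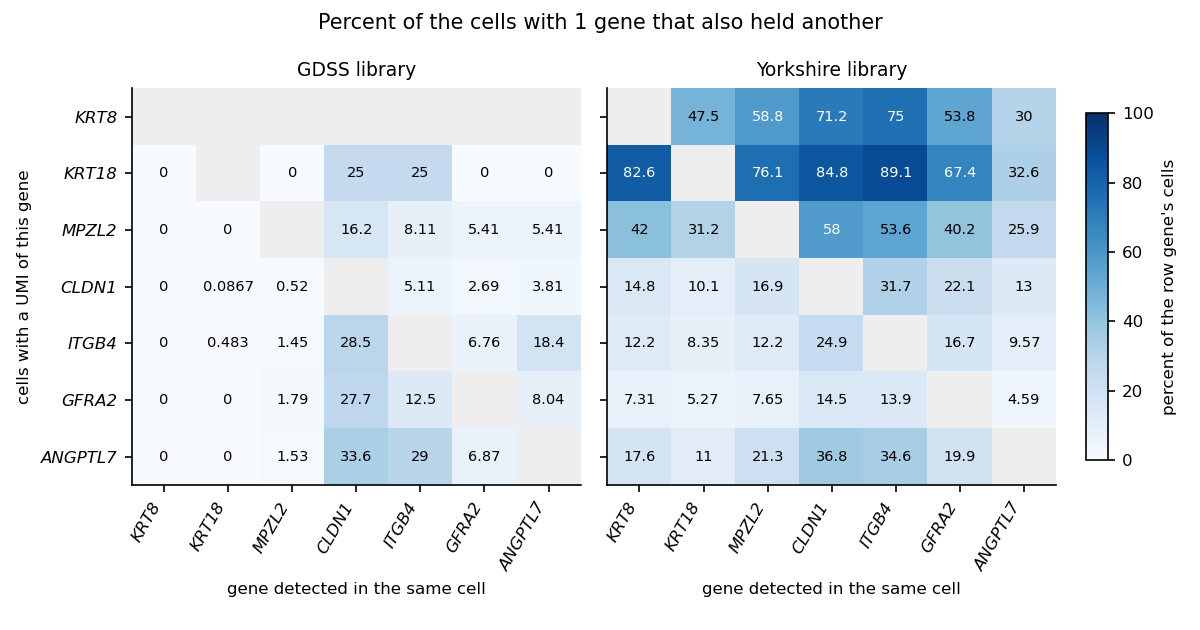
Percent of the cells with a UMI of the row gene that also held a UMI of the column gene, over all GDSS cells (left) and all Yorkshire cells (right), with colour from 0 to 100%. The KRT8 row is empty in GDSS, where no cell held it, and in Yorkshire 82.6% of the KRT18 cells also held KRT8.

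Other genes differed between the 45 KRT8 cells and the other 237 Yorkshire cells of cluster 16. Among genes with at least 50 UMIs over both, the highest by ratio were SFRP5, a secreted inhibitor of Wnt signalling (271 against 15.7 CPM, 17.3-fold, 10.2 to 30.9), ITGBL1 (930 against 71.9 CPM, 12.9-fold) and ECRG4 (403 against 31.3 CPM, 12.9-fold). CDH5, the cadherin of endothelial junctions, was 10.3-fold higher (5.45 to 20.9), with 43 UMIs in 25 of the 45 cells. KRT14, a keratin of basal epithelial layers, was 9.37-fold higher (6.56 to 13.6), at 363 against 38.7 CPM, and NGFR, the low-affinity neurotrophin receptor, 7.71-fold (4.13 to 15.1). DHRS3, PLEC, MRAS, ADIRF, THBS2 and INMT were 7.12-fold to 8.75-fold higher.

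Lowest in the KRT8 cells by the same rule was FCN2, a ficolin, with 1 UMI against 2029 UMIs in the other Yorkshire cells, 2.88 against 1870 CPM (ratio 0.00154, 3.9e-05 to 0.00859). MYOC had 1 UMI against 369 and COL15A1, a basement membrane collagen, 6 UMIs against 659. EFEMP1, MME, AQP3, APOA1, CHODL, AGTR1, HHIP and PLXDC1 were also among the 12 lowest, between 0.0202 and 0.0696 of the level of the other cells. FCN2 was also high in the GDSS cells of cluster 16, at 5002 CPM.

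The 12 highest genes served to look for cells of the same kind in GDSS. At least 5 of the 12 were detected in 39 of the 45 KRT8 cells and in 7 of the other 237 Yorkshire cells of cluster 16. They were detected in 0 of its 428 GDSS cells (a share of up to 0.858%), where the highest number was 4. Of the 12, those found in the 3 GDSS cells of sub-cluster 4 were DHRS3, in 2 cells, and ITGBL1, KRT14, PLEC and INMT, in 1 cell each. Outside cluster 16 the number of cells with at least 5 was 22 of 11105 in GDSS and 52 of 14036 in Yorkshire. The genes were chosen by their ratio between the KRT8 cells and the other Yorkshire cells, so the counts of both are fixed by that choice. The cells were not matched for depth, with medians of 6121 UMIs in the KRT8 cells, 4183 in the other Yorkshire and 3195 in the GDSS cells of cluster 16.

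**Figure D5:**
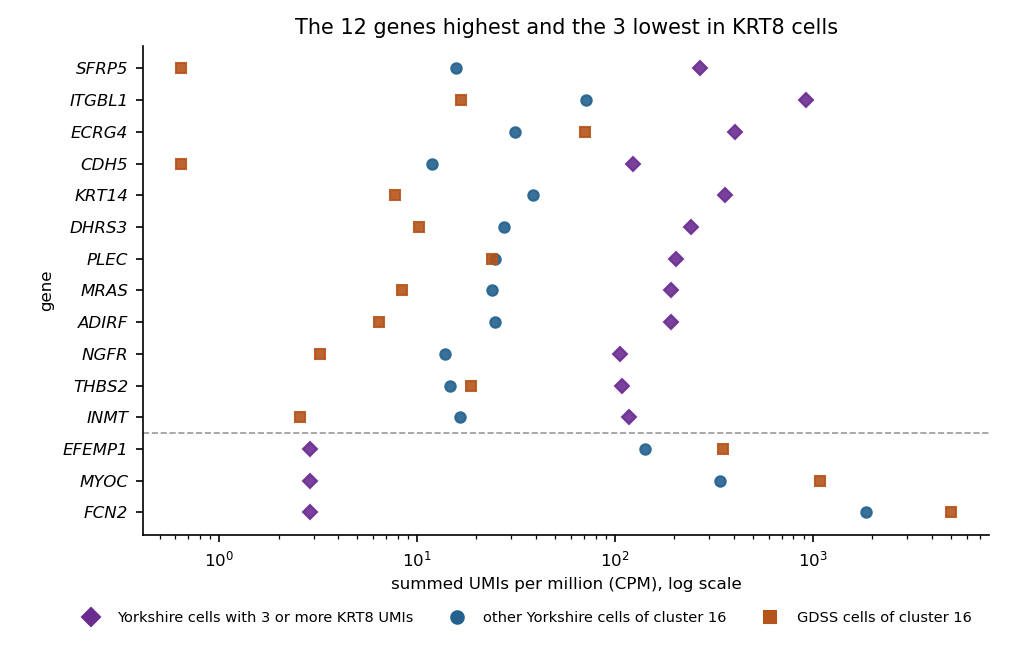
Level (x axis, CPM on a log scale) of the 12 genes highest (above the dashed line) and the 3 lowest (below it) by ratio in the 45 Yorkshire KRT8 cells (diamonds), with the other 237 Yorkshire cells (circles) and the 428 GDSS cells (squares) of cluster 16. Apart from ECRG4 at 70.8 CPM, the upper 12 genes stay under 24 CPM in GDSS, and FCN2 runs from 2.88 CPM in the KRT8 cells to 5002 CPM in GDSS.

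Genes of the same structures were read from lists chosen by function. For the contrast of KRT8 cells with the other Yorkshire cells of cluster 16, 22.8% of 7117 genes with at least 20 UMIs passed 1.5-fold upwards and 17.0% downwards in the KRT8 cells, with a median log2 ratio of 0.06. Of 36 other keratin genes, 34 had 0 UMIs in the KRT8 cells. The exceptions were KRT14, with 126 UMIs, and KRT10, with 9 UMIs (25.9 against 29.5 CPM).

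Of the 27 tight junction genes in the matrices 6 had enough UMIs, and 6 of 6 were at least 1.5-fold higher in the KRT8 cells, with a median log2 ratio of 1.13. In the KRT8 cells 16 of the 27 were at 0 UMIs. One of these, CLDN11, had 17 UMIs in the other Yorkshire cells, too few to be counted, and so went the other way. OCLN, the junction protein occludin, stood at 95 against 12.9 CPM (7.36-fold, 3.84 to 14.9), and TJP1, the scaffold that ties claudins to actin, at 409 against 190 CPM (2.15-fold, 1.73 to 2.68). MARVELD2, JAM2 and JAM3 were 1.91-fold to 3.51-fold higher. Between the libraries, TJP1 and JAM3 passed the 1.5-fold threshold towards Yorkshire, of the 3 such genes with at least 100 UMIs in cluster 16. Among all 4103 genes with that many UMIs there, 17.6% did. The Yorkshire side includes the KRT8 cells, with 142 of 348 TJP1 and 64 of 121 JAM3 UMIs, so this is not a separate result. In the other Yorkshire cells TJP1 stood at 190 against 95.9 CPM in GDSS. JAM3 stood at 52.5 against 31.5 CPM and JAM2, the third gene, at 82.9 against 70.8 CPM.

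Of 8 hemidesmosome and laminin genes with enough UMIs, of 13 in the matrices, 6 were at least 1.5-fold higher and 1 lower in the KRT8 cells, with a median log2 ratio of 1.06. ITGA6, the partner chain of ITGB4, stood at 176 against 26.7 CPM (6.57-fold, 4.16 to 10.6), and PLEC, the linker plectin that joins ITGB4 to filaments, at 204 against 24.9 CPM (8.21-fold, 5.21 to 13.3). LAMA4 was 2.23-fold, DST 2.27-fold, LAMB2 1.96-fold and CD151 1.76-fold higher. LAMB1 was lower, at 57.6 against 539 CPM, a ratio of 0.107 (0.0648 to 0.166). Of the 7 such genes with at least 100 UMIs in cluster 16, ITGA6, PLEC, DST and LAMA4 passed the 1.5-fold threshold towards Yorkshire. Among all 4103 genes with that many UMIs there, 17.6% did. This is not a separate result, since the Yorkshire side includes the KRT8 cells, with 61 of 90 ITGA6 and 71 of 98 PLEC UMIs. In the other Yorkshire cells PLEC stood at 24.9 against 23.8 CPM in GDSS, and ITGA6 at 26.7 against 12.9 CPM. DST stood at 57.1 against 41.2 CPM and LAMA4 at 308 against 193 CPM.

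The other lists held few counted genes. RET, the kinase that GFRA2 signals through, had 0 UMIs in the KRT8 cells. It had 15 UMIs (13.8 CPM) in the other Yorkshire and 38 (24.5 CPM) in the GDSS cells of cluster 16. With the 0 set to 3 UMIs, the ratio of the KRT8 cells to the other Yorkshire cells is bounded at 0.625, and RET had too few UMIs to be counted. GFRA1, the related receptor for GDNF, was lower in the KRT8 cells at 69.1 against 156 CPM (ratio 0.444, 0.277 to 0.683), and NCAM1 stood at 144 against 104 CPM (ratio 1.38, 0.97 to 1.95). ANGPTL1, ANGPTL2 and ANGPTL4, the 3 of 7 other angiopoietin-like genes counted, were lower in the KRT8 cells at ratios of 0.599 to 0.617. MPZL1 was lower, at 43.2 against 140 CPM. MPZL3, the neighbour of MPZL2 in the RefSeq annotation of Sscrofa11.1, was higher, at 28.8 against 8.29 CPM on 10 and 9 UMIs (3.47-fold, 1.27 to 9.66). Of 5 counted other intermediate filament genes, LMNA was 1.84-fold higher and VIM, DES and NEFL were lower.

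Markers of cell types bear on what the KRT8 cells can be called. Of the 4 analysed perineurial markers beside the 7 genes, ITGA6 and PERP (52 against 13 CPM, 18 and 14 UMIs) were at least 1.5-fold higher in the KRT8 cells, TENM2 stood at 31.7 against 25.8 CPM and NTNG1 had 2 UMIs. Of the 4 analysed endoneurial markers, SOX9 was lower (ratio 0.565, 0.327 to 0.927), ETV1 and OSR2 stood at ratios of 0.758 and 1.39, and MEOX1 had 3 UMIs. Of 11 epithelial markers 9 were at 0 UMIs, among them EPCAM, CDH1, KRT5 and KRT7, which leaves KRT14 and 5 CLDN4 UMIs. The mesothelial markers WT1, CALB2 and BNC1 were at 0 and UPK1B had 2 UMIs. Of the 7 FAP markers DCN and LUM were at least 1.5-fold lower than in the other Yorkshire cells of cluster 16 (ratios 0.288 and 0.245), while COL1A1 and COL1A2 stood at ratios of 0.891 and 0.976. Among the 8 endothelial markers, CDH5 and TIE1 were higher, PECAM1 had 5 UMIs and KDR, VWF and CLDN5 had 0. Of the glia markers, NGFR was higher, ERBB3 was lower, and SOX10 had 0 UMIs. Among 7 mural markers TAGLN (ratio 2.13) and NOTCH3 (4.04) were higher and RGS5, ACTA2, PDGFRB and CSPG4 lower. Among 7 tenocyte markers FMOD and KERA were higher, THBS4 was lower and 3 were at 0. The 7 macrophage markers summed to 11.5 CPM and the 4 erythroid markers to 0. The part of cells of other types in the KRT8 cells was not tested. The keratin cells are therefore called KRT8 cells here and given no cell type name.

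Outside cluster 16 the 7 genes went separate ways. ITGB4 was high in glia-like cluster 15, whose leading genes include MAG, a gene of myelin: 53 UMIs in 35 of 96 GDSS cells and 120 UMIs in 85 of 179 Yorkshire cells. Their levels, 198 and 183 CPM, did not differ beyond counting error (Yorkshire over GDSS 0.923, 0.663 to 1.3). Lymphatic-like cluster 24 held ITGB4 in 8 of 16 GDSS and 37 of 62 Yorkshire cells, at 107 and 163 CPM. Endothelial-like cluster 23, led by genes of venous type such as SELP and ACKR1, held it in 12 of 36 and 98 of 204 cells, at 31.2 and 86.4 CPM, 2.77-fold higher in Yorkshire (1.64 to 5.05). Macrophage-like cells, which should lack these genes, held ITGB4 in 0.98% of 408 GDSS and 5.03% of 159 Yorkshire cells, with median depths of 5503 and 7618 UMIs, and held 0 UMIs of KRT18 and MPZL2.

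CLDN1 was found in FAP-like cells, mostly of GDSS. The 4 FAP-like clusters held 66.4% of GDSS CLDN1, 1199 UMIs in 851 of 7189 cells (49.4 CPM), against 169 UMIs in 1524 Yorkshire cells (29.3 CPM). The direction was not the same in the 4 clusters. CLDN1 was higher in GDSS in cluster 3 (81.4 against 33.7 CPM, 2.42-fold, 1.40 to 4.58), cluster 2 (36.8 against 18.6 CPM, 1.98-fold, 1.29 to 3.16) and cluster 8 (64.3 against 15.2 CPM, 4.22-fold, 2.89 to 6.24). It was higher in Yorkshire in cluster 4 (65.3 against 37.9 CPM, 1.72-fold, 1.34 to 2.19). Glia-like cluster 14 held 51 CLDN1 UMIs in 17 of 475 GDSS cells and 4 UMIs in 2 of 284 Yorkshire cells. Macrophage-like cells had CLDN1 in 2.21% of GDSS and 0 of 159 Yorkshire cells. Over all cells outside cluster 16 the GDSS level of CLDN1 was 6.51-fold that of Yorkshire (5.71 to 7.46). The FAP-like class held 7189 of the 11533 cells in GDSS, but 1524 of the 14318 in Yorkshire.

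GFRA2 in Yorkshire was mainly found in satellite-like cells, the muscle stem cells: cluster 10 held 399 of the 863 UMIs, in 289 of 3890 cells at 31.5 CPM. The 256 GDSS cells of cluster 10 held 4 GFRA2 UMIs (6.86 CPM), a ratio of 4.59 (1.78 to 16.9). Mural-like cluster 21, cells of the vessel wall, held it on 10 GDSS UMIs (25.1 CPM) and 14 Yorkshire UMIs (46.4 CPM). The ratio of 1.85 (0.763 to 4.65) shows no difference at this depth and leaves a large one possible. In macrophage-like cells 3 GFRA2 UMIs were found in each library, in 0.735% of GDSS and 1.26% of Yorkshire cells. RefSeq lists 2 loci under the symbol GFRA2 in Sscrofa11.1, and which of them the counts stand for is not known here.

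ANGPTL7 had a second site in tenocyte-like cluster 18, with 151 UMIs in 42 of 453 GDSS cells and 157 UMIs in 38 of 360 Yorkshire cells, 55.2 and 69.5 CPM (ratio 1.26, 1.00 to 1.59). MPZL2 was found there too, 19 and 23 UMIs at 6.94 and 10.2 CPM. In glia-like cluster 14 ANGPTL7 was 7.71-fold higher in Yorkshire (3.73 to 17.9), at 55.3 against 7.17 CPM on 46 and 9 UMIs. One GDSS cell of the macrophage-like cluster held 27 ANGPTL7 UMIs, and no other macrophage-like cell held any. KRT8 outside cluster 16 came to 40 UMIs in Yorkshire, 2 of them in macrophage-like cells (1.26% of 159 cells, 0.153 to 4.47), and KRT18 to 17 UMIs.

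The likeness of the 7 genes to each other and to other genes was measured as the Pearson correlation of log2(CPM + 1) over 44 groups, each the cells of 1 cluster in 1 library with at least 50 cells. Groups share their library and depth, so the values are descriptions. KRT8 and KRT18 were most like each other, with a correlation of 0.933, followed by KRT18 and MPZL2 with 0.702 and KRT8 and MPZL2 with 0.669. The other pairs lay between 0.189 (CLDN1 with ITGB4) and 0.546 (MPZL2 with ANGPTL7). Most like the mean of the 7 were SPAI-2 (0.781), SULT1E1 (0.776), KCNK7 (0.752), TMEM132C (0.740) and OPCML (0.719). CLDN1 was most like PLXDC1 (0.867), FZD2 (0.864) and VIT (0.859), ITGB4 was close to SDC3 (0.793) and DUSP15 (0.771), and ANGPTL7 most like COL9A1 (0.766) and CNTN1 (0.755). GFRA2 was most like WAC (0.728) and SON (0.727).

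Finally, the 7 genes were set beside the other genes with at least 100 UMIs in cluster 16. Ranked by the ratio of the libraries, KRT8 and KRT18 led the genes higher in Yorkshire, followed by SFRP5 (77.5 against 0.644 CPM) and MPZL2. WNT6, a Wnt ligand (68.4 against 1.93 CPM), P4HA3 (80.3 against 3.86), ITGBL1 (280 against 16.7), HRH1 (69.8 against 4.51) and KRT14 (117 against 7.73) came next. Higher in GDSS were C17orf67 (130 against 6.98 CPM), SPP1 (104 against 9.08), CRYAB (268 against 46.1), MFAP4 (417 against 74.7), POSTN (114 against 21.6) and MYOC (1084 against 258). Without sub-cluster 4, and again among genes with at least 100 UMIs, which leaves out KRT8, KRT18 and MPZL2, the order towards Yorkshire was ITM2A (200.1 against 22.1 CPM), SFRP1 (349 against 52.7), LY6G6E (104 against 17.6) and GFRA2 (84.9 against 18.2).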

How the data were processed

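The deposited matrices hold raw UMI counts by gene and barcode. The submitters' processing notes name Cell Ranger and R 3.5.2. The matrix headers give software version 3.1.0, and the labels name a 10x Genomics v2 kit. Genome build: not given in the sources used here. Coordinates are left out. No sequence is printed, and genes absent by symbol were not analysed here. Some genes of the lists are not reported here.

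For clustering, each cell was scaled to 10000 and logged. It used 2000 variable genes without the 7, 30 components, 15 neighbours and Leiden resolution 1.0 (sub-clusters 0.5), both libraries together, with no batch correction. A name needed 3 markers that were 1.5-fold higher than in the rest and present in 10% of the cluster; the class with the highest share of its markers gave the name, unless tied or unless another class had more markers among the 10 leading genes. Cluster 16 was picked by the levels of the 7 genes and was left out of the naming. The genes named are the 12 highest and 12 lowest by ratio, up to 10 most alike, and members of lists by function. Others, including the genes leading clusters, were picked after their values were seen. The 7 genes, lists and markers were chosen with earlier results of these data known. Doublets were scored with scrublet and kept: 66 GDSS (0.572%) and 195 Yorkshire cells (1.36%) scored 0.3 or more, and leaving them out is an alternative. Summed counts give CPM, and a count of 0 is set to 3 UMIs for a bound. The steps for ratios and thinning were also run on simulated data with known answers. Tools were Python 3.11.15, scanpy 1.11.5, scipy 1.17.1, and R 4.3.3 with edgeR 4.0.16 for scaling factors only.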

Additional observations from a re-analysis of the deposited data

How the results depend on the processing

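Over all cells the 7 genes kept their direction in each of 9 alternatives (mitochondrial, doublet and gene limits, all barcodes, TMM, median-of-ratios, the 10 richest cells left out, thinning, no sub-cluster 4). TMM and median-of-ratios scaling moved all log2 ratios by 0.11 and 0.12. The median log2 ratio (GDSS level divided by Yorkshire level) moved from -2.46 to -0.82 without sub-cluster 4. In cluster 16 the median of -3.01 became -0.79 without sub-cluster 4, -5.51 at Leiden resolution 2.0 and -4.80 with the 7 genes kept in the clustering. ANGPTL7 reversed in the last pair, to -5.51 and -3.82, where the cells then picked held 1 and 0 GDSS UMIs of ANGPTL7 against 40 in Yorkshire. The share of all UMIs of the 7 genes in cluster 16, 43.7% in GDSS and 66.6% in Yorkshire, became 12% and 55.4% at resolution 2.0, 12% and 55.6% with the genes kept in, and 32.7% in GDSS with each library clustered alone. Cells with at least 2 of the genes, 1.12% and 1.43%, became 0.386% and 0.790% when thinned to 1500 UMIs, and 0.269% and 0.698% held at least 3. CLDN1 cells with ITGB4, 5.11% in GDSS and 31.7% in Yorkshire, became 2.74% and 20.4% when thinned. No paired analysis was possible because each breed has 1 library. With 1 library a breed, none of these values measures the spread between animals.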
